A study of Mus musculus with 19 samples.

Results

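The genes described here encode receptors of the CD28 family and other inhibitory molecules on helper T cells, and they were chosen by name: Pdcd1, Icos, Cd28, Ctla4, Btla, Lag3, Tigit, Cd200, Havcr2 and Cd160. Each gene was read from the probe set with the highest mean over the 19 arrays among those annotated with that symbol alone. Of the 10 genes, 9 had such a probe set, of 18193 genes in all that had one. These 9 were also among the 9930 genes tested, which reached log2 4 on at least 2 arrays. Havcr2 passed that filter through its CXCR5lo PD-1lo arrays alone. Tigit was not analysed here.

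Gene expression was measured in sorted mouse CD4+ T cells of strain C57BL/6J on 19 Affymetrix arrays. Per the labels, OT-II cells carrying 1 Bcl6yfp reporter allele (Bcl6yfp/+) were transferred into mice, which were then immunized under the skin with NP-OVA in CFA. OT-II cells bear a transgenic receptor for an ovalbumin peptide, and the allele makes cells that express BCL6 fluoresce yellow; this repressor of transcription drives the follicular helper T (Tfh) fate. Draining lymph nodes gave CXCR5hi PD-1hi Tfh cells that were YFP-positive (n = 4, of which replicate 4 was from day 10 and the others from day 7) or YFP-negative (n = 4, replicates 1 and 4 from day 10). They also gave CXCR5hi PD-1hi cells of Bcl6yfp/+ genotype (n = 3, day 7) and of Bcl6+/+ genotype without the reporter (n = 3, replicates 1 and 2 from day 10), and CXCR5lo PD-1lo cells (n = 3, day 7). Naive CD4+ T cells (n = 2) were taken from spleens of mice that had not been immunized. The labels attach 1 protocol text to all samples, so it may not describe the Bcl6+/+ and naive cells. Whether replicate arrays stem from different animals or pools is not stated, so the p-values here rest on array-to-array spread that could be technical.

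T cell activation needs a second signal besides the antigen receptor. CD28 supplies it when it binds CD80 or CD86, and ICOS, a relative of CD28, binds ICOS ligand on B cells and is needed for Tfh cells to form and persist. CTLA-4, PD-1 and BTLA are inhibitory members of the same family, and LAG-3, TIM-3 (gene Havcr2), CD200, CD160 and TIGIT are further surface molecules that restrain T cells or the cells they touch. PD-1 at high level, together with the follicle-homing receptor CXCR5, is the usual mark of Tfh cells and was used to sort them here, so Pdcd1 serves as the yardstick for the other genes.

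The deposited values are log2 expression values from GCRMA, on which a value near 2 is the floor. Array medians ran from 2.40 to 2.99. The arrays fell into 7 sets by the distribution of their values, and differences within a set are given beside the main results. Of 5 T cell markers (Cd3e, Cd3d, Cd3g, Cd4 and Cd2), all had means above log2 8 in every group. Of the 6 B cell markers measured, none reached a group mean of log2 8 in any group, and 6 of 6 were under log2 4 in YFP-positive cells against 5 of 6 in CXCR5lo PD-1lo cells, where Cd79b lay between 5.26 and 5.36. Of 4 plasma cell markers 3 were tested, and 2 were higher and 1 lower in YFP-positive than in CXCR5lo PD-1lo cells, with 0 called. The plasma cell transcript Jchain was at 8.45, 2.22, 3.06 and 2.21 in YFP-positive cells and at 10.53, 7.91 and 7.72 in CXCR5lo PD-1lo cells. On YFP-negative replicate 1 it reached 12.42, and the macrophage transcript Lyz2 reached 10.98. Leaving out the 3 arrays of set 1, which holds that array, changed no call of the 9 genes. Fewer cells that express a gene and less of its RNA per cell cannot be told apart in such samples.

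Pdcd1 followed the gate. It had log2 values of 14.35, 14.34, 14.34 and 14.73 in YFP-positive cells and of 14.58, 14.21, 14.30 and 14.51 in YFP-negative cells. The values were 13.75, 14.21 and 14.22 in Bcl6yfp/+ cells and 13.85, 14.27 and 14.38 in Bcl6+/+ cells. CXCR5lo PD-1lo cells had 11.99, 10.84 and 10.60, and naive cells 5.52 and 6.43. The 4 sorts of CXCR5hi PD-1hi cells overlapped, the CXCR5lo PD-1lo arrays all lay below them, and both naive arrays lay far below those. YFP-positive cells exceeded CXCR5lo PD-1lo cells by log2 3.30 (SE 0.30), which restates the sort. CXCR5lo PD-1lo cells still had 36.1 times the naive level (log2 5.17, SE 0.36, adjusted p = 4.1e-08, limma).

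The Pdcd1 promoter is shown because its letters can be set beside those of Cd160 and Havcr2, which also differ widely across the gate. The window runs from 250 bases before to 50 bases after the annotated start and comes from RefSeq (GRCm38.p6, chr1:94052504-94052803, minus strand). Capitals mark matches, on either strand, to the 4 motifs searched. These were the NFAT core GGAAA, the AP-1 site TGANTCA, the T-box half-site GGTGTGA and the STAT site TTCNNNGAA.
Pdcd1 promoter: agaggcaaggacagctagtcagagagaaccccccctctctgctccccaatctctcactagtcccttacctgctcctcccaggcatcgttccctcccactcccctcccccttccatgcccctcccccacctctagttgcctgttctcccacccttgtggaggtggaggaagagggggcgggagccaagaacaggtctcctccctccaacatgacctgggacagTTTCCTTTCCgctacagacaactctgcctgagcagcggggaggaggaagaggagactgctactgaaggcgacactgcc
It holds 2 adjoining NFAT cores on the opposite strand, at positions -28 and -23 from the start. An NFAT core is common, being present in 61.3% of 32851 promoter windows of that length, and a match is only a description of the letters. The AP-1 site was in 7.81% of these windows, the T-box half-site in 3.98% and the STAT site in 8.30%.

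**Figure D1:**
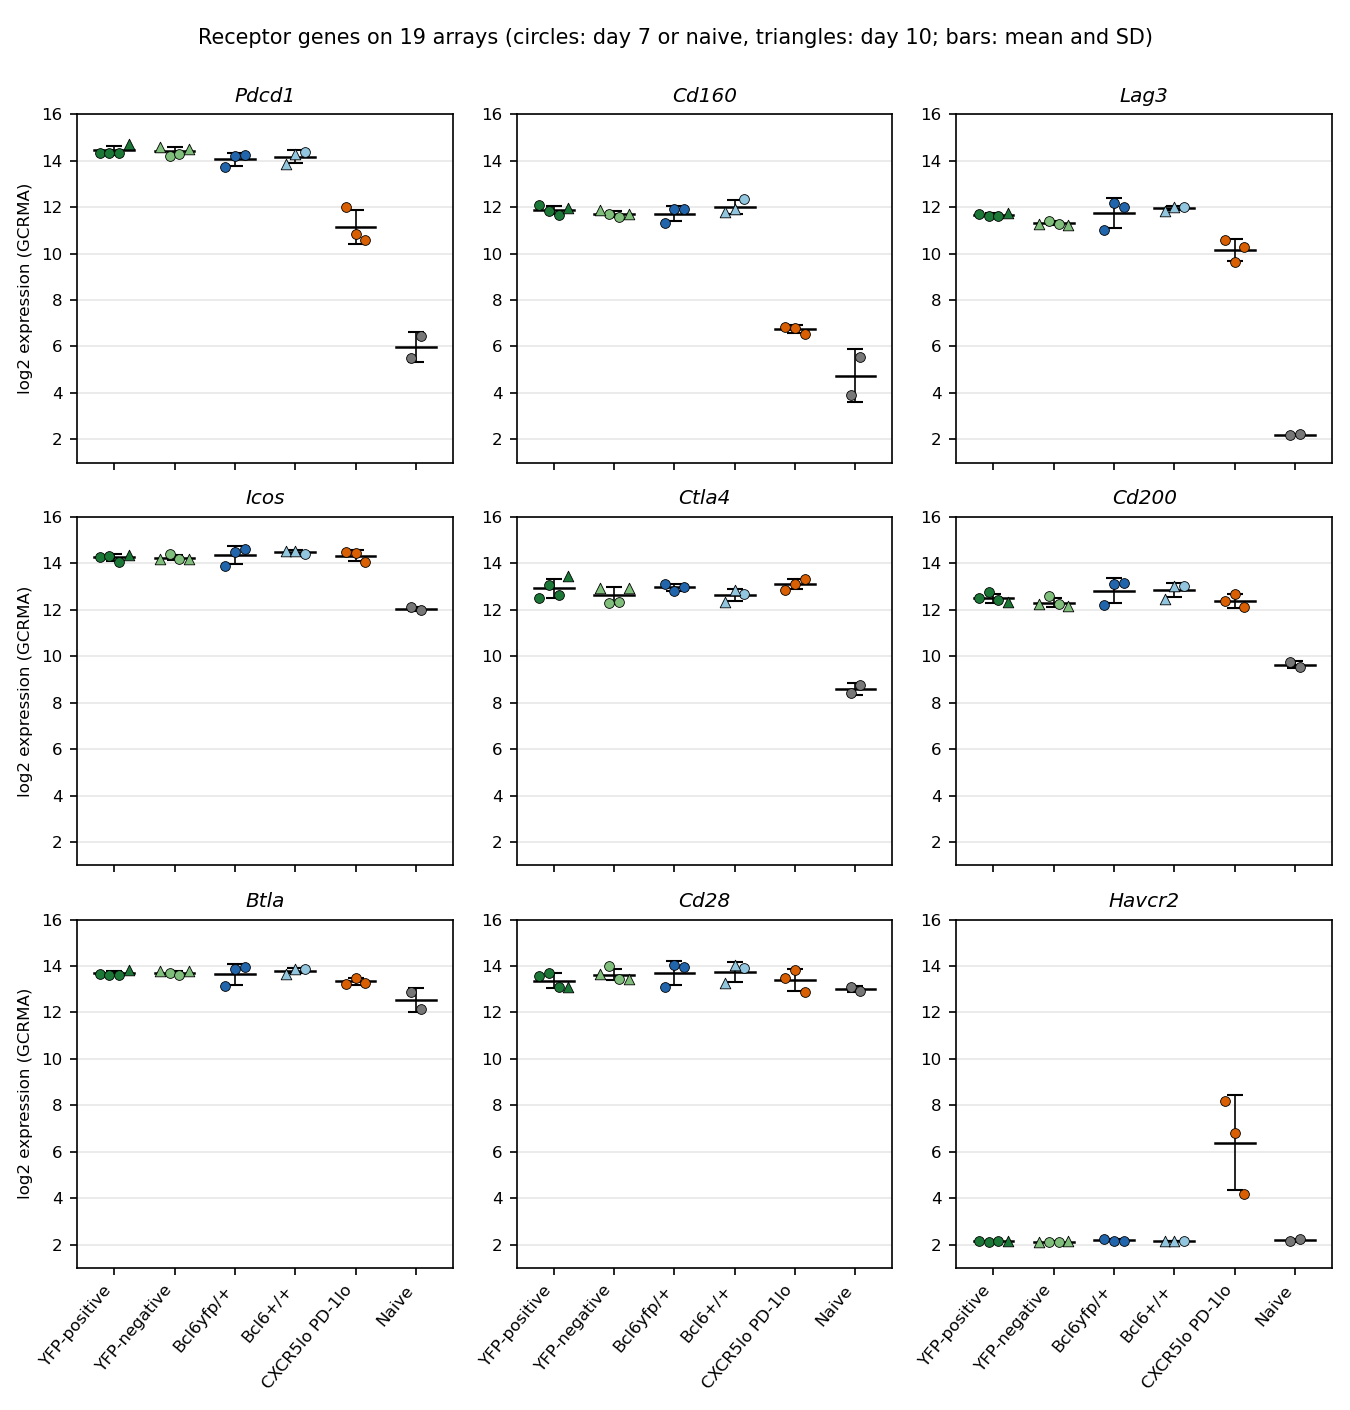
Log2 expression of the 9 receptor genes on each of the 19 arrays by group, with circles for day 7 or naive arrays, triangles for day 10 arrays, and bars for the mean and SD. Pdcd1, Cd160 and Lag3 are highest in the 4 CXCR5hi PD-1hi groups, Icos, Ctla4 and Cd200 lie above naive cells in all immunized groups, and Havcr2 leaves the floor on the 3 CXCR5lo PD-1lo arrays alone.

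The gate between CXCR5hi PD-1hi and CXCR5lo PD-1lo cells asks which other receptors go with high PD-1. Besides Pdcd1, which the sort chose, Cd160 and Lag3 rose between YFP-positive and CXCR5lo PD-1lo cells (n = 4 and 3). Havcr2 was called lower, but it entered the tests through its CXCR5lo PD-1lo arrays, so that call supports nothing and its levels are given as a description. Icos, Cd28, Ctla4, Btla and Cd200 did not pass. Over all genes tested, 10.6% were called in this comparison, 5.18% higher and 5.39% lower. YFP-negative cells (n = 4) set against the same CXCR5lo PD-1lo arrays gave calls for the same genes in the same directions, where 6.53% of all genes were called, 3.13% higher and 3.39% lower. With the replicate number as a block, 20.8% of all genes were called for YFP-positive and 11.2% for YFP-negative cells, and the calls of the 9 genes were the same. The 2 comparisons share their control arrays and are no independent repeats. The groups did not overlap for 5 of the 9 genes in either comparison (Pdcd1, Btla, Lag3, Havcr2 and Cd160), where 22.9% of all genes did not overlap for YFP-positive cells and 18.7% for YFP-negative cells. Within that count, Pdcd1 was fixed by the sort and Havcr2 by the filter, so these genes add no support to it.

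Cd160, which binds the same ligand as BTLA, the TNF receptor family member HVEM, differed widely across the gate. Its log2 values were 12.08, 11.82, 11.65 and 11.97 in YFP-positive cells and 11.87, 11.69, 11.59 and 11.69 in YFP-negative cells. In CXCR5lo PD-1lo cells they were 6.85, 6.82 and 6.53, and in naive cells 3.92 and 5.55. Every CXCR5hi PD-1hi array lay far above every CXCR5lo PD-1lo array, and the replicates of each immunized group lay close together. YFP-positive cells had 35.4 times the CXCR5lo PD-1lo level (log2 5.14, SE 0.30, adjusted p = 4.7e-09, limma), and YFP-negative cells 31.5 times (log2 4.98, SE 0.30, adjusted p = 7.4e-09). Within sets 1, 2 and 3, YFP-positive exceeded CXCR5lo PD-1lo cells by 5.22, 5.01 and 5.11. The 95% interval of the difference was 4.51 to 5.77 for Cd160 and 2.65 to 3.94 for the sort marker Pdcd1, from separate probe sets whose difference was not tested. Bcl6yfp/+ cells, at 11.33, 11.94 and 11.90, and Bcl6+/+ cells, at 11.78, 11.90 and 12.36, overlapped the YFP-sorted cells. The values 11.33 and 12.36 were the lowest and the highest of all CXCR5hi PD-1hi arrays.

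CD160 is also a receptor of natural killer and CD8 T cells, whose markers were therefore examined. Of the 4 such markers measured, Cd8a and Ncr1 were under log2 4 in the mean of every group. The sum of the 4 ran from 12.8 to 13.5 in YFP-positive cells and from 12.8 to 13.8 in YFP-negative cells, against 15.8 to 18.1 in CXCR5lo PD-1lo cells. The sum was higher in CXCR5lo PD-1lo cells, the only group where Klrk1 had a mean of at least log2 4. The part of such cells in the Cd160 level was not tested.

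Cd160 has 4 probe sets, and all 4 passed for YFP-positive over CXCR5lo PD-1lo cells in a fit over all probe sets, with log2 differences of 5.14 at 1420067_at, which was used, 6.40 at 1420066_s_at, 6.43 at 1420396_at and 4.12 at 1456847_at. The step from naive to CXCR5lo PD-1lo cells was less certain. It was 2.0 at the probe set used (SE 0.36, adjusted p = 0.0012, limma), 1.52 at 1420066_s_at and 2.26 at 1420396_at. At 1456847_at it ran the other way, at -1.31 (adjusted p = 0.099). After quantile normalization of all arrays the step at the probe set used was 1.44 and no longer passed (adjusted p = 0.080).

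**Figure D2:**
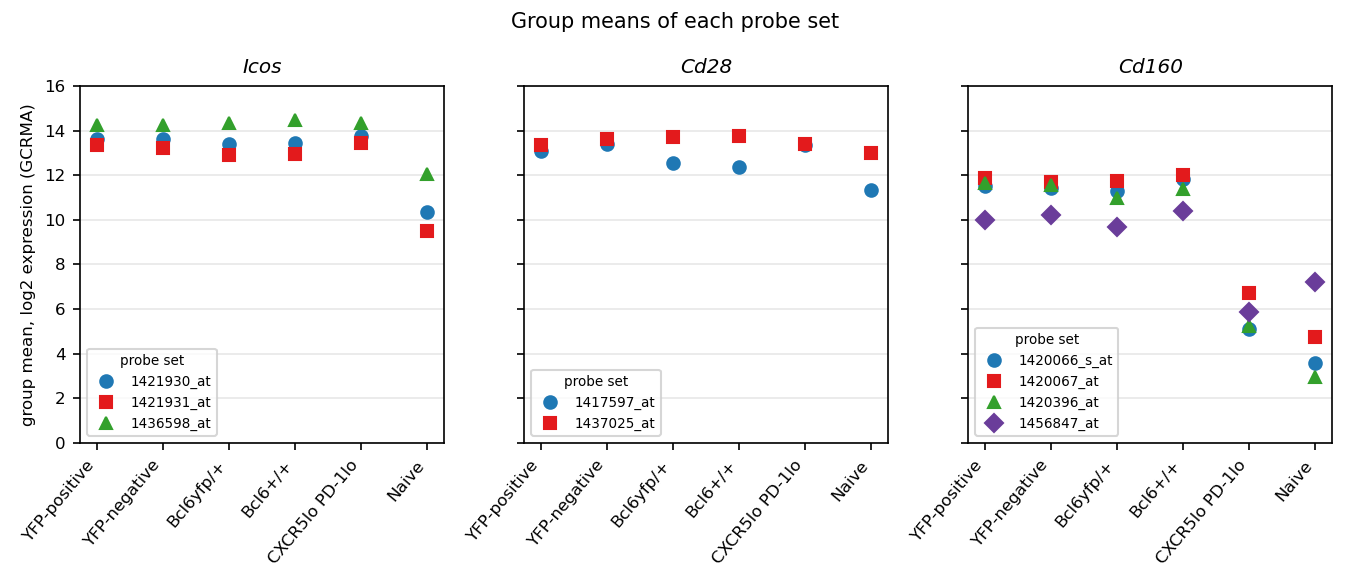
Group means on the log2 scale of every probe set of Icos, Cd28 and Cd160, the receptor genes with several. All 4 Cd160 probe sets drop from the CXCR5hi PD-1hi groups to CXCR5lo PD-1lo cells, while 1 of them is higher in naive than in CXCR5lo PD-1lo cells, and the 2 Cd28 probe sets differ in their naive level.

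RefSeq lists 2 separate start sites for Cd160. Both promoter windows are shown because they hold different letters and the arrays do not tell which start was used (GRCm38.p6, minus strand, chr3:96829302-96829601 for promoter 1 and chr3:96814472-96814771 for promoter 2).
Cd160 promoter 1: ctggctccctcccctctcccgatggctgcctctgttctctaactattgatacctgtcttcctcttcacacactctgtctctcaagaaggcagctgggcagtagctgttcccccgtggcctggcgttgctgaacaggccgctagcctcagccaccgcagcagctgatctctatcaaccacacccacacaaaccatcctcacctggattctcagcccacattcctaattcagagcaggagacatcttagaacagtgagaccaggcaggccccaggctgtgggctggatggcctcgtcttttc
Cd160 promoter 2: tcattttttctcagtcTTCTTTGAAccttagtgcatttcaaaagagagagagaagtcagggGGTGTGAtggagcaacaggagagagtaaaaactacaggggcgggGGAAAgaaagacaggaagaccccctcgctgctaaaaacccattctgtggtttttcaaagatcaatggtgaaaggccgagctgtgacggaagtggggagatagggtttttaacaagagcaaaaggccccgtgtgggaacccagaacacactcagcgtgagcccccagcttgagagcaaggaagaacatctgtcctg
Promoter 1 holds no match to the 4 motifs. Promoter 2 holds a STAT site at position -234, a T-box half-site at -189 and an NFAT core at -145, again shown in capitals.

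Lag3 encodes a relative of CD4 that binds MHC class II and inhibits T cells. It had log2 values of 11.71, 11.63, 11.61 and 11.74 in YFP-positive cells, 11.28, 11.42, 11.29 and 11.25 in YFP-negative cells, and 10.57, 9.62 and 10.27 in CXCR5lo PD-1lo cells. The naive values were 2.19 and 2.22. These 3 immunized groups did not overlap, and naive cells lay at the floor. YFP-positive cells had 2.87 times the CXCR5lo PD-1lo level (log2 1.52, SE 0.26, adjusted p = 0.00081, limma), with differences of 1.13, 2.01 and 1.34 within sets 1, 2 and 3. For YFP-negative cells the ratio was 2.23 (log2 1.16, SE 0.26, adjusted p = 0.010), with 0.71, 1.80 and 1.02 within these sets. The call for YFP-negative cells rested on CXCR5lo PD-1lo replicate 2, the lowest array: without it the difference was 0.89 (adjusted p = 0.084). It was also lost without the day 10 arrays (1.2, adjusted p = 0.12).

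Lag3 had a wide step from naive cells. CXCR5lo PD-1lo cells exceeded naive cells by log2 7.95 (SE 0.31, adjusted p = 3.2e-11, limma) and YFP-positive cells by 9.47 (SE 0.29, adjusted p = 7.4e-13). Both sizes depend on the floor of the scale, and with values under log2 4 set to 4 they were 6.15 and 7.67, against 5.17 and 8.47 for Pdcd1.

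Havcr2 encodes TIM-3, an inhibitory receptor of interferon-γ-producing Th1 cells, and ran opposite to Pdcd1 across the gate. Its log2 values lay between 2.14 and 2.15 in YFP-positive cells and between 2.12 and 2.15 in YFP-negative cells. CXCR5lo PD-1lo cells had 8.20, 6.80 and 4.18. Naive cells had 2.15 and 2.24, and no Bcl6yfp/+ or Bcl6+/+ array was above 2.24. Of the 19 arrays, the 3 from CXCR5lo PD-1lo cells alone lay above the floor, and these spread over about 4 log2 units. Against CXCR5lo PD-1lo cells the mean difference was -4.25 for YFP-positive cells and -4.26 for YFP-negative cells, and -2.39 for both with values under log2 4 set to 4. Within sets 1, 2 and 3 the difference for YFP-positive cells was -6.05, -4.67 and -2.03. No p-value is given, since a gene kept through 1 group alone had to differ there.

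CXCR5lo PD-1lo replicate 1, with the highest Havcr2, also had the highest Pdcd1 and Lag3 of its group. TIM-3 is found on macrophages and dendritic cells too. Of 7 markers of those cells, Csf1r, Itgax, Cd14 and Itgam were under log2 4 in the mean of every group, and the sum of the 7 ran from 25.8 to 31 in CXCR5lo PD-1lo cells, against 26.1 to 30.9 in YFP-positive cells. Klrk1, a receptor of natural killer and CD8 T cells, was at 6.01, 7.05 and 4.99 in CXCR5lo PD-1lo cells and had means under log2 4 in the 5 other groups. The part of Klrk1 and Jchain in the Havcr2 difference was not tested.

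The Havcr2 promoter is shown as that of the gene with the opposite pattern (RefSeq, GRCm38.p6, chr11:46454681-46454980, plus strand).
Havcr2 promoter: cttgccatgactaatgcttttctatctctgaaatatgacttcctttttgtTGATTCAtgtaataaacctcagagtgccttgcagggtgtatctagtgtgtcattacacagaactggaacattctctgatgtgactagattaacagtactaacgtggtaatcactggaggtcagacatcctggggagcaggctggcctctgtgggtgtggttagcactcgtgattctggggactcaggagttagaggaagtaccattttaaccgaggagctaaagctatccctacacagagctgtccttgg
It holds 1 match, an AP-1 site at position -200, which reads the same on both strands apart from its middle base. None of the 4 motifs was shared by the windows of Pdcd1 and Havcr2.

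Icos, Ctla4 and Cd200 showed a second pattern, in which the immunized groups lay together and above naive cells. Icos had log2 values of 14.27, 14.33, 14.04 and 14.38 in YFP-positive cells, 14.17, 14.40, 14.20 and 14.21 in YFP-negative cells, and 14.49, 14.44 and 14.07 in CXCR5lo PD-1lo cells, with 12.11 and 11.98 in naive cells. The 3 immunized groups overlapped fully, and both naive arrays lay below all of them. YFP-positive differed from CXCR5lo PD-1lo cells by -0.08 (95% interval -0.49 to 0.33). Against naive cells Icos was higher by 2.21 in YFP-positive cells (SE 0.22, adjusted p = 1.1e-06, limma), by 2.20 in YFP-negative cells and by 2.29 in CXCR5lo PD-1lo cells. The other 2 probe sets of Icos gave 3.25 and 3.89 for YFP-positive over naive cells, so the size but not the direction varied with the probe set.

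Ctla4, the inhibitory competitor of CD28 for CD80 and CD86, had 12.52, 13.09, 12.64 and 13.44 in YFP-positive cells, 12.94, 12.28, 12.35 and 12.92 in YFP-negative cells, 12.86, 13.12 and 13.30 in CXCR5lo PD-1lo cells and 8.42 and 8.78 in naive cells. Its highest group mean was that of CXCR5lo PD-1lo cells, at 13.10 ± 0.22 (SD, n = 3), but that group overlapped YFP-positive cells. The differences from CXCR5lo PD-1lo cells were -0.18 for YFP-positive cells (95% interval -0.71 to 0.36) and -0.47 for YFP-negative cells (-1.01 to 0.06), and neither passed. For YFP-negative cells the difference within sets 1, 2 and 3 was 0.08, -0.84 and -0.96. With the set as a block it was -0.61 (adjusted p = 0.057, limma), so the groups are not shown to be equal. Ctla4 exceeded the naive level by log2 4.32 in YFP-positive cells (SE 0.29, adjusted p = 1.0e-08, limma) and by log2 4.50 in CXCR5lo PD-1lo cells (SE 0.30, adjusted p = 2.6e-08). CTLA-4 is also a marker of regulatory T cells. The 7 markers of those cells, Ctla4 among them, went both ways: between YFP-positive and CXCR5lo PD-1lo cells Ikzf2 was called higher and Il2ra lower. Their sum ran from 63.2 to 65 in YFP-positive cells, from 69.1 to 70.9 in CXCR5lo PD-1lo cells and from 54.4 to 61.5 in naive cells. The defining marker Foxp3 was under log2 4 on every YFP-positive and YFP-negative array, at 3.38, 3.71 and 5.14 in CXCR5lo PD-1lo cells, and at 5.39 and 8.17 in naive cells. The part of such cells in the Ctla4 level was not tested.

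Cd200 encodes a membrane ligand whose receptor restrains myeloid cells. It had 12.49, 12.75, 12.41 and 12.33 in YFP-positive cells, 12.24, 12.59, 12.25 and 12.16 in YFP-negative cells, 12.37, 12.66 and 12.10 in CXCR5lo PD-1lo cells and 9.75 and 9.53 in naive cells. The immunized groups again overlapped, above both naive arrays. The difference between YFP-positive and CXCR5lo PD-1lo cells was 0.12 (95% interval -0.41 to 0.64). Against naive cells Cd200 was higher by 2.86 in YFP-positive cells (SE 0.28, adjusted p = 9.7e-07, limma) and by 2.74 in CXCR5lo PD-1lo cells (SE 0.30, adjusted p = 6.7e-06).

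Btla encodes an inhibitory receptor that Tfh cells carry at high level. Its log2 values were 13.66, 13.62, 13.61 and 13.84 in YFP-positive cells, 13.78, 13.72, 13.60 and 13.77 in YFP-negative cells, 13.23, 13.48 and 13.28 in CXCR5lo PD-1lo cells and 12.90 and 12.17 in naive cells. The YFP-sorted arrays all lay above the CXCR5lo PD-1lo arrays, and these above the naive arrays, in small steps. Of the other CXCR5hi PD-1hi cells, Bcl6yfp/+ replicate 1, at 13.13, lay below every CXCR5lo PD-1lo array. The remaining Bcl6yfp/+ and Bcl6+/+ arrays lay above them. YFP-positive cells exceeded CXCR5lo PD-1lo cells by 0.35 (95% interval -0.11 to 0.81, adjusted p = 0.40, limma), and this did not pass. The set of arrays made a difference here. With the set as a block the difference was 0.32 and passed (adjusted p = 0.0088), and that for YFP-negative cells was 0.35 (adjusted p = 0.0081). Within sets 1, 2 and 3 the difference for YFP-positive cells was 0.43, 0.14 and 0.33. Against naive cells Btla was higher by 1.15 in YFP-positive cells (adjusted p = 0.0022). That call was lost without naive replicate 2, the lower of the 2 naive arrays (0.79, adjusted p = 0.084). CXCR5lo PD-1lo cells exceeded naive cells by 0.80 (95% interval 0.25 to 1.35), which did not pass (adjusted p = 0.054) and passed with the set as a block (0.57, adjusted p = 0.015).

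Cd28, the activating founder of the family, varied least between groups. Its values were 13.58, 13.70, 13.09 and 13.11 in YFP-positive cells, 13.64, 13.99, 13.46 and 13.44 in YFP-negative cells, 13.50, 13.82 and 12.89 in CXCR5lo PD-1lo cells and 13.09 and 12.91 in naive cells. The CXCR5lo PD-1lo arrays spanned nearly the whole range, from below the naive arrays to above every YFP-positive array. YFP-positive cells differed from CXCR5lo PD-1lo cells by -0.03 (95% interval -0.65 to 0.59) and from naive cells by 0.37 (-0.33 to 1.07), and neither passed. A second probe set, 1417597_at, differed from this. In the fit over all probe sets it was higher than in naive cells by 1.73 in YFP-positive cells (SE 0.60, adjusted p = 0.047, limma) and by 2.06 in YFP-negative cells (SE 0.60, adjusted p = 0.025), while 2.0 in CXCR5lo PD-1lo cells did not pass (adjusted p = 0.054). On the RefSeq map Cd28, Ctla4 and Icos lie side by side on 1 chromosome with 0 protein-coding genes between neighbours, and Btla and Cd200 are neighbours in the same way.

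**Figure D3:**
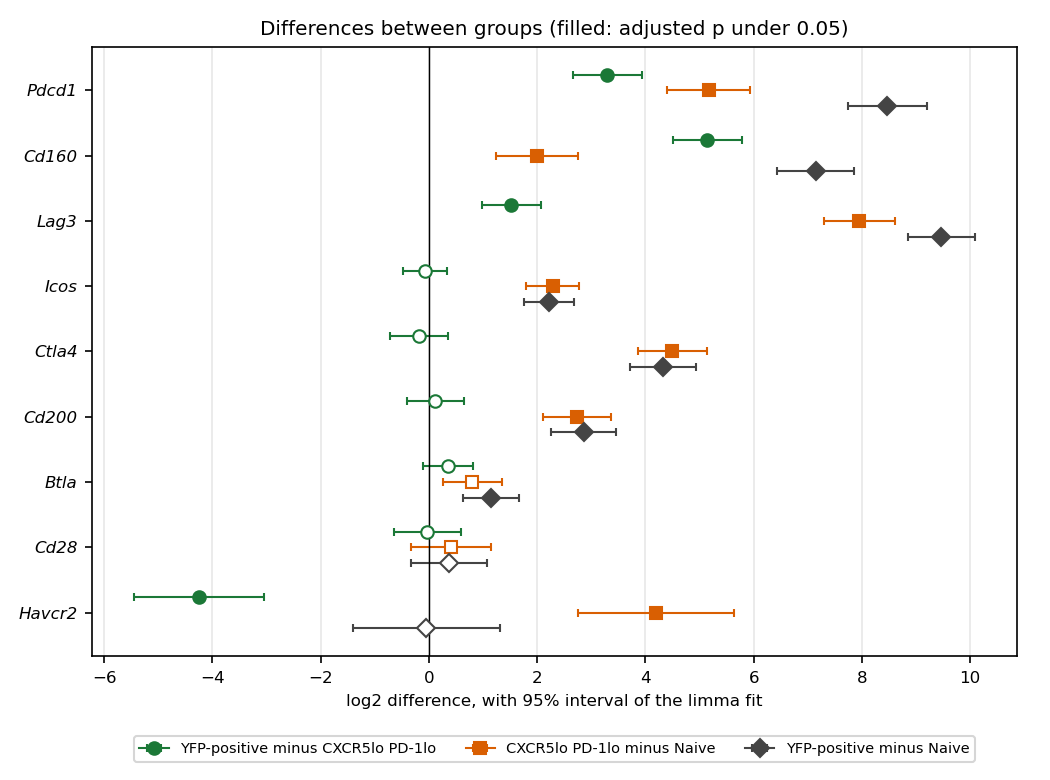
Log2 differences of the 9 receptor genes for YFP-positive minus CXCR5lo PD-1lo cells, CXCR5lo PD-1lo minus naive cells and YFP-positive minus naive cells, with the 95% interval of the limma fit and filled marks where the adjusted p was under 0.05. Cd160 has its larger step at the gate (5.14 against 2.0), Lag3 between naive and CXCR5lo PD-1lo cells (7.95 against 1.52), Icos, Ctla4 and Cd200 have no step at the gate beyond the interval, and Havcr2 runs opposite ways in the 2 steps. The filled Havcr2 marks support nothing, since that gene passed the filter through its CXCR5lo PD-1lo arrays alone.

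Set against naive cells (n = 2), 7 of the 9 genes rose in YFP-positive cells, namely all but Cd28 and Havcr2. Over all genes 28.8% were called in this comparison, 22.4% of all as higher. The same 7 rose in YFP-negative cells, where 21.1% of all genes were called and 16.5% were higher. In CXCR5lo PD-1lo cells 6 of these rose, all but Btla, and Havcr2 was called higher through the arrays that admitted it, where 11.9% of all genes were called and 10.4% were higher. Bcl6yfp/+ cells (20.5% of all genes called, 15.4% higher) and Bcl6+/+ cells (35.9% called, 31.5% higher) each gave the 7 genes that rose in YFP-positive cells. The median log2 difference of the 9 genes was 2.86 for YFP-positive cells, against 0.39 over all genes, and 2.74 for CXCR5lo PD-1lo cells, against 0.46 over all genes. The median for CXCR5lo PD-1lo cells counts Havcr2, which those arrays admitted. Both medians count the sort marker Pdcd1, so they are a description only. All these comparisons share the 2 naive arrays, which fell in different sets. Within set 4, which holds YFP-positive replicate 4 and naive replicate 1, the differences of the 7 genes were 9.21 for Pdcd1, 2.27 for Icos, 5.02 for Ctla4, 0.94 for Btla, 9.56 for Lag3, 2.58 for Cd200 and 8.05 for Cd160.

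The reporter was used to divide Tfh cells by their expression of BCL6, though Bcl6 RNA was not called different between YFP-positive and YFP-negative cells. Of the 9 genes, 0 were called between YFP-positive and YFP-negative cells (n = 4 each), where 0.121% of all genes were called, and 0 reached an unadjusted p under 0.05. Lag3 came nearest in the main fit, at 11.67 ± 0.06 in YFP-positive cells and 11.31 ± 0.08 in YFP-negative cells (SD, n = 4 each). It was the one gene of the 9 whose groups did not overlap, where 3.89% of all genes did not. The difference was 0.36 (SE 0.24, 95% interval -0.14 to 0.87, adjusted p = 0.95, limma). By replicate number it was 0.42, 0.21, 0.32 and 0.50, so that YFP-positive cells were higher in 4 of 4 pairs. It did not pass with the replicate number as a block (adjusted p = 0.43) or with the set as a block (adjusted p = 0.13). Nor did it pass in a fit of these 2 groups alone (SE 0.13, adjusted p = 0.43). With the set as a block, Cd28 and Cd200 came nearer than Lag3 (adjusted p = 0.059 and 0.060, limma). With the replicate number as a block, Cd28 came nearer (adjusted p = 0.30, limma). Of all genes, 0.745% were called with the replicate number as a block, 15.5% with the set as a block and 3.09% without YFP-positive replicate 4, and none of the 9 genes was among them.

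Cd160 and Cd200 were also higher in 4 of 4 pairs, by 0.06 to 0.28 and by 0.16 to 0.25. So was Havcr2, which lay at the floor in both sorts, by 0.002 to 0.025. Cd28 was lower in 4 of 4 pairs, with a mean difference of -0.26 (95% interval -0.84 to 0.31). The share of all genes that ran 1 way in 4 of 4 pairs was not counted, so these signs are a description only. The pairs of Ctla4 did not run 1 way, at -0.42, 0.81, 0.29 and 0.52. For every gene the first pair sets a day 7 YFP-positive array against a day 10 YFP-negative array. The mean of Ctla4 was higher at day 10 in both YFP sorts, for YFP-positive cells on 1 array, and lower in Bcl6+/+ cells. The part of day in the Ctla4 pairs was not tested. Icos, Pdcd1 and Btla differed by 0.01, 0.04 and -0.03 on average. The 95% intervals leave room for differences of up to 0.39 for Icos and 0.63 for Pdcd1, so the populations are not shown to be equal.

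**Figure D4:**
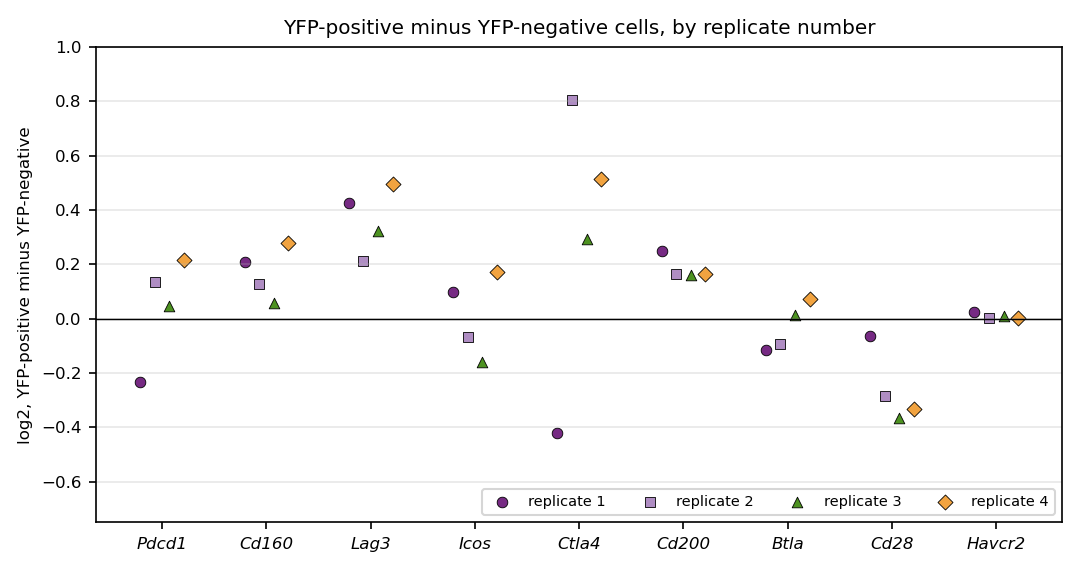
Log2 difference of YFP-positive minus YFP-negative cells for each receptor gene, with 1 mark for each of the 4 replicate numbers. Lag3 (0.21 to 0.50), Cd160 and Cd200 lie above 0 and Cd28 lies below 0 in all 4 pairs, while the Ctla4 pairs spread from -0.42 to 0.81. Havcr2, at the floor, also lies above 0, by 0.002 to 0.025.

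The reporter allele itself was examined by setting Bcl6yfp/+ against Bcl6+/+ CXCR5hi PD-1hi cells (n = 3 each). All Bcl6yfp/+ arrays are from day 7 and 2 of the 3 Bcl6+/+ arrays from day 10, so genotype and day are mixed. None of the 9 genes passed in limma, where 0 of the 9930 genes passed (0% of all genes), and 0 of the 9 reached an unadjusted p under 0.05. Ctla4 had 13.11, 12.81 and 13.00 in Bcl6yfp/+ cells and 12.34, 12.84 and 12.69 in Bcl6+/+ cells (0.35, 95% interval -0.22 to 0.92). The Ctla4 difference was 0.64 with day as a covariate and 0.28 without the day 10 arrays, and neither passed (adjusted p = 0.65 and 0.89). Lag3 had 11.00, 12.18 and 12.02 in Bcl6yfp/+ cells and averaged 11.95 ± 0.09 in Bcl6+/+ cells (-0.21, 95% interval -0.80 to 0.37). Bcl6yfp/+ replicate 1 was the lowest array of its group for 7 of the 9 genes, all but Ctla4 and Havcr2, and by its value distribution it fell in another set than the other arrays of its group. Without the first array of each genotype the difference was 0.14 for Ctla4, -0.21 for Cd160, 0.10 for Lag3 and 0.11 for Cd200, where that of Cd200 was -0.02 over all arrays. Over all genes the median difference between the genotypes was -0.26, and over the 9 genes it was -0.11.

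Day 10 was compared with day 7 in the 3 groups that hold both days. Of the 9 genes, 0 passed, where 0.232% of all genes did. Ctla4 had the largest difference, at 0.44 (SE 0.19, unadjusted p = 0.034, adjusted p = 0.41, limma). In YFP-positive cells Ctla4 was at 13.44 on the 1 day 10 array, against a mean of 12.75 at day 7 (n = 3). In YFP-negative cells it averaged 12.93 at day 10 and 12.31 at day 7 (n = 2 each). In Bcl6+/+ cells it averaged 12.59 at day 10 (n = 2), against 12.69 on the 1 day 7 array. The observed direction thus differed in Bcl6+/+ cells, where it rests on that 1 array. A test of whether the day effect differed between groups gave 0 of 9 genes, where 0.111% of all genes passed.

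The genes most like each receptor gene were taken as the 3 genes with the highest Pearson correlation over the 19 arrays, which share groups and sets, so the values describe the group pattern. Pdcd1 was followed by Cxcr5 (r = 0.995), the other sort marker, Il21 (0.990) and Mapre2 (0.986). Cd160 was followed by Cela1 (0.988), Il4 (0.986) and H2-Q2 (0.985), and Lag3 by Tiam1 (0.996), Tox2 (0.994) and Tnfsf14 (0.992). Ctla4 went with Bhlhe40 (0.971), Nrp1 (0.953) and Plscr1 (0.951). Havcr2 went with Ltb4r1 (0.999), Stmn2 (0.993) and 1500009L16Rik (0.989).

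Icos was most like Tspoap1 (0.982), Map3k8 (0.981) and Synpo (0.981), and Cd200 most like Ybx3 (0.979), Gjb2 (0.978) and Sla (0.977). Btla was most like Rgs10 (0.963), Il6st (0.957) and Tbc1d2b (0.954), and Cd28 most like Plekha3 (0.962), Dr1 (0.962) and Rspry1 (0.958). Over the 14 CXCR5hi PD-1hi arrays the correlation with Pdcd1 varied between the receptors. It was 0.59 for Btla, 0.47 for Cd160, 0.35 for Ctla4, 0.08 for Cd28 and for Lag3, 0.07 for Icos and -0.09 for Cd200. Over all 19 arrays it was 0.86 for Btla, 0.94 for Cd160, 0.84 for Ctla4, 0.49 for Cd28, 0.96 for Lag3, 0.87 for Icos and 0.87 for Cd200. Lag3, Icos and Cd200 did move together there, at 0.82 for Lag3 with Icos and 0.86 for Lag3 with Cd200, over arrays of which Bcl6yfp/+ replicate 1 was low in all 3.

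Of the listed ligands and partners of these receptors, 11 of 15 were tested. Between YFP-positive and CXCR5lo PD-1lo cells 1 rose and 3 fell, where 5.18% of all genes rose and 5.39% fell. Where a group of a gene in these lists had arrays under log2 4, its difference is given with such values set to 4 and without a p-value. Pdcd1lg2, which encodes the PD-1 ligand PD-L2, had 10.57 ± 0.22 in YFP-positive cells (SD, n = 4), 9.36 ± 0.33 in YFP-negative cells (n = 4) and 7.63 ± 0.85 in CXCR5lo PD-1lo cells (n = 3). It rose by 2.94 in YFP-positive cells (SE 0.38, adjusted p = 5.3e-05, limma) and by 1.73 in YFP-negative cells (SE 0.38, adjusted p = 0.0085). Lgals3, whose product galectin-3 binds LAG-3, was called lower, with differences of -4.27 in YFP-positive cells and -5.46 in YFP-negative cells. Cd226, the activating competitor of TIGIT, was called lower but lay near the floor in all groups of the gate, at -0.42 in each YFP sort. Cd96, another receptor of that group, fell, at -0.87 in YFP-positive cells (adjusted p = 0.038). Against naive cells Tnfrsf14, the HVEM gene, was called higher in YFP-positive cells, at 1.71. The median of the 11 genes between YFP-positive and CXCR5lo PD-1lo cells was -0.29, against -0.07 over all genes.

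Of 17 tested signalling genes below the receptors, 1 rose and 2 fell between YFP-positive and CXCR5lo PD-1lo cells (median -0.17), where 10.6% of all genes were called. Ptpn11, which encodes the phosphatase SHP-2 that PD-1 recruits, rose by 1.53 in YFP-positive cells (adjusted p = 0.00042, limma) and by 1.53 in YFP-negative cells (adjusted p = 0.00053). Grap2, the adaptor GADS that binds CD28, fell, at -2.15 in YFP-positive cells (adjusted p = 0.0013) and -2.06 in YFP-negative cells (adjusted p = 0.0026). Pik3cd, the catalytic kinase subunit below ICOS and CD28, fell by 0.68 in YFP-positive cells (adjusted p = 0.043). Against naive cells 5 of the 17 rose and 2 fell in YFP-positive cells, where 28.8% of all genes were called and 22.4% rose, with Ptpn11 up by 2.48 and the kinase gene Tec down, at -4.11 (SE 0.89, adjusted p = 0.0025).

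Of 16 regulators reported for these receptor genes, 3 rose and 3 fell between YFP-positive and CXCR5lo PD-1lo cells (median -0.21), where 10.6% of all genes were called. Tox2, a nuclear factor of Tfh cells, rose by 1.70 (SE 0.29, adjusted p = 0.00086, limma), Bcl6 by 1.58 (adjusted p = 0.00019) and the AP-1 factor Batf by 1.07 (adjusted p = 0.0083). YFP-positive cells were sorted on the Bcl6 reporter, so the rise of Bcl6 in them is not independent of that sort. Bcl6 was also called higher in YFP-negative cells, which were sorted for lack of the reporter signal. Tbx21, the T-bet gene of Th1 cells, was at 2.16 ± 0.11 in YFP-positive cells (SD, n = 4), against 8.37 ± 1.35 in CXCR5lo PD-1lo cells (n = 3), a difference of -4.37. Tbx21 left the floor in CXCR5lo PD-1lo cells alone, so its call supports nothing. Both Bcl6 and Tbx21 are included in the counts of 3 that rose and 3 that fell. Prdm1, whose product Blimp-1 opposes BCL6, was called lower, at -1.95, and Irf4 fell by 1.18 (adjusted p = 0.021). The same 6 genes passed in the same directions for YFP-negative cells against the same CXCR5lo PD-1lo arrays. Between CXCR5lo PD-1lo and naive cells 10 of the 16 were called higher and 0 lower, where 10.4% of all genes were called higher. Among them were Tox2 (8.38), whose naive arrays lay at 2.53 and 3.11, and Maf (6.42, SE 0.37). Between YFP-positive and YFP-negative cells 0 of the 16 regulators passed, and 0 of the ligands, signalling genes and other inhibitory receptors did. In that comparison 0.121% of all genes were called.

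Of 8 tested genes for other inhibitory receptors, 3 rose and 3 fell between YFP-positive and CXCR5lo PD-1lo cells (median -0.34), where 10.6% of all genes were called. Cd22, best known as an inhibitory receptor of B cells, had 11.19 ± 0.46 in YFP-positive cells (SD, n = 4), 10.47 ± 0.98 in YFP-negative cells (n = 4), 3.85 ± 1.32 in CXCR5lo PD-1lo cells (n = 3) and 2.21 ± 0.02 in naive cells (n = 2). Its difference from CXCR5lo PD-1lo cells was 6.74 in YFP-positive cells and 6.02 in YFP-negative cells, and it was called in both. The B cell markers Cd79a, Ms4a1, Blk, Pax5 and Fcer2a were under log2 4 in the mean of every group, and Cd79b in that of every group but CXCR5lo PD-1lo cells. The part of B cells in the Cd22 level was not tested. Nt5e, the ectoenzyme CD73, rose by 1.32 (adjusted p = 0.022) and Vsir, the gene of VISTA, by 0.78 (adjusted p = 0.019), and Cd72 fell, at -3.19 (adjusted p = 0.00011). Lair1 and Klrg1 were called lower, at -1.12 and -2.14, and the Klrg1 arrays of the groups overlapped. Against naive cells Cd72 also fell in YFP-positive cells, at -3.82 (SE 0.49), and Lair1 was called lower, at -3.41. Lair1 fell in CXCR5lo PD-1lo cells too, at -2.29 (SE 0.39, adjusted p = 0.00089).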

How the data were processed

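RNA of sorted CD4+ T cells was labelled and hybridised to 19 Affymetrix arrays. The authors deposited log2 expression values for 45101 probe sets; they used GCRMA, per the submitters' processing notes, and its version is not given in the sources used here. Per the labels' protocols, RNA was extracted with TRIzol for the YFP-sorted, CXCR5lo PD-1lo and first naive samples, and with TRIzol or an RNeasy kit for the others. Arrays were grouped into 7 sets, each assumed to share 1 normalization, where their ranked values lay within a mean distance of 0.06 log2. Sets 1, 2 and 3 hold replicates 1, 2 and 3 of both YFP sorts and of CXCR5lo PD-1lo cells. Set 4 holds YFP-positive and YFP-negative replicate 4 and naive replicate 1, set 5 Bcl6yfp/+ replicate 1 and naive replicate 2, set 6 replicates 2 and 3 of both genotypes, and set 7 Bcl6+/+ replicate 1.

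Probe sets were named through GEO's platform annotation. Probe sets reaching log2 4 on at least 2 arrays were kept, and each gene was read from its highest, giving 9930 genes. A mean per group was fitted over the 19 arrays together in R 4.3.3 by limma 3.58.1 (lmFit and eBayes), checked on simulated data. P-values were adjusted by Benjamini-Hochberg over all genes tested, with 0.05 as the threshold for a call. Probe sets were compared in a second fit over 22327 of them. Precision is limited by how many arrays there are. The genes and lists were chosen with earlier results of these data known. All 10 receptor genes are named in each comparison. From the lists, the genes named are at most 3 called genes with the highest and 3 with the lowest log2 difference among those whose groups do not overlap; the other list genes given were chosen after their values were seen. Alternatives were the replicate number, the set and the day in the fit, other filters, probe set means, quantile normalization, a floor, the compared groups alone, and leaving out arrays.

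Same-numbered arrays deviated from their group means together in every pair, with correlations from 0.27 to 0.87 among the YFP sorts and CXCR5lo PD-1lo cells and from 0.57 to 0.64 between the genotypes. Differently numbered arrays ran from -0.65 upwards, and some were about as alike. YFP-negative replicate 4 with CXCR5lo PD-1lo replicate 3 gave 0.39, and Bcl6yfp/+ replicate 2 with Bcl6+/+ replicate 3 gave 0.56. Same-numbered arrays of the YFP sorts and CXCR5lo PD-1lo cells also share a set. The replicate numbers were taken to pair the samples as an assumption that the labels do not state. Whether same-numbered arrays share a source was not tested.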

Additional observations from a re-analysis of the deposited data

Results flagged for a closer look

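Among the 18 combinations of a receptor gene with a group of 4 arrays, Dixon's test set apart 1 array in each of 2. For Pdcd1, YFP-positive replicate 4 was at log2 14.73, above the 3 other arrays of its group, which lay at 14.34 to 14.35. That array is the only one of its group from day 10. For Icos, YFP-negative replicate 2 was at 14.40, above the 3 other arrays, which lay at 14.17 to 14.21. Chance alone sets apart about 1 array in 20 such groups. Both gaps are smaller than 0.4 log2 units, and leaving out either array changed no call of that gene.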

How the results depend on the processing

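The count of receptor genes called stayed within 1.5 times its value in all 10 comparisons and in the test of the day effect between groups, under every alternative that could be run. A block for the replicate number, pairing same-numbered arrays, changed no receptor gene's call: for YFP-positive against CXCR5lo PD-1lo cells the differences were 5.13 for Cd160 (adjusted p = 1.3e-06, limma) and 1.52 for Lag3 (adjusted p = 0.00090). The comparisons with naive cells have no such fit, since 1 naive label carries no number. No called difference changed its sign. Single genes changed their side of the threshold in 21 settings, of which 12 gained and 9 lost a call. Those of Lag3, of Btla across the gate and of Cd160 by quantile normalization stand beside their values above. With the set as a block Cd28 passed between YFP-negative and CXCR5lo PD-1lo cells (0.31, adjusted p = 0.034). Averaged over its probe sets, Cd28 passed between YFP-negative and naive cells (1.34, adjusted p = 0.036). Without Bcl6yfp/+ replicate 1 it passed for Bcl6yfp/+ over naive cells (1.0, adjusted p = 0.025), and without Bcl6+/+ replicate 1 for Bcl6+/+ over naive cells (0.98, adjusted p = 0.046). Btla lost its calls for YFP-negative and Bcl6yfp/+ over naive cells without naive replicate 2 (0.82 and 0.75), the last also in a fit of those 2 groups alone (adjusted p = 0.18). It gained one for CXCR5lo PD-1lo over naive cells without naive replicate 1 (1.17, adjusted p = 0.029), without the first array of each genotype (adjusted p = 0.0091) and with no filter (adjusted p = 0.045). In a fit of these 2 groups alone, which has fewer arrays, CXCR5lo PD-1lo over naive cells lost Cd160 (adjusted p = 0.089, limma). Havcr2 lost its call there too, though that call supported nothing, since its CXCR5lo PD-1lo arrays admitted it. Differences that had not passed changed sign in 89 settings of 27 results, none of them larger than 0.29. With the set as a block, all-gene calls were 44.7% for YFP-positive against CXCR5lo PD-1lo cells and 30.5% for YFP-negative against CXCR5lo PD-1lo cells. The cause of these changes was not tested.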
